A study of Mus musculus with 24 samples.

Results

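Ligands of the TNF superfamily are the messages that an activated helper T cell passes to its neighbours, and the transcripts of 10 of them were followed here in mouse CD4+ T cells over the first day of stimulation. The 10 genes are Tnf, Lta, Ltb, Cd40lg, Fasl, Tnfsf4, Tnfsf8, Tnfsf10, Tnfsf11 and Tnfsf14. They were taken by name as family members known from T cells, and they make up 10 of the 54446 genes in the count table. All 10 were among the 15325 genes with enough reads to be tested, and in no library did any of them come near the detection floor of 3 reads, which is 0.152 CPM at the lowest depth. CPM is the number of reads of a gene per 1000000 reads of the library.

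The study asks what the DNA sensor AIM2 does in T cells. CD4+ T cells were isolated from the spleen of wild-type (WT) and AIM2-/- (Aim2-/-) mice on a C57BL6 background, and were either left unstimulated (0 h) or stimulated through CD3 and CD28 for 3, 6 or 24 h. There were 3 mice of each genotype, numbered 1, 3 and 4 for WT and 1, 2 and 4 for Aim2-/-, each giving 1 library at every time, so that 8 groups of 3 libraries make 24 libraries in all. The sample titles give a genotype, a number and a time, and a number was read as the same mouse at every time. Aim2 is missing from every cell of an Aim2-/- mouse and not from T cells alone, and the labels give neither age nor litter, so litter and genotype cannot be told apart. Bulk RNA also cannot tell fewer cells that make a transcript from less of it in each cell.

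Most ligands of the family are trimeric proteins of the cell surface, from which proteases can release soluble forms. Many of their receptors signal through TRAF adaptors to NF-κB, which favours activation and survival. Some carry a death domain, through which a cell can be driven into apoptosis. In CD4+ T cells the family is best known for help to B cells through CD40 ligand, for the organisation of lymphoid tissue through the lymphotoxins, for inflammation through TNF and for the death of activated cells through Fas ligand.

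The targeted gene went against the label of 1 mouse. In the 4 libraries of the mouse labelled WT 1, Aim2 stood at 21.5, 17.0, 11.5 and 5.57 CPM at 0, 3, 6 and 24 h. WT mice 3 and 4 had 67.5 to 75.0, 50.7 to 52.3, 32.5 to 33.0 and 34.0 to 38.7 CPM, and the Aim2-/- mice had 15.7 to 20.1, 14.6 to 15.1, 8.18 to 11.4 and 5.28 to 7.15 CPM. The mouse labelled WT 1 thus lay at the Aim2-/- level, and comparisons of the ligands and counts of called genes in other lists that use it are also given without it where a call, a direction or a count differs, for those lists and Aim2 as an alternative chosen after the data were seen. Reads were counted over the whole gene, and the part of it that the allele lacks is not given in the sources used here. With that mouse kept in its group, the log2 difference of Aim2 between the genotypes was -1.58 (SE 0.53) before stimulation and -2.04 (SE 0.56) after 24 h, with adjusted p-values of 0.0794 and 0.0785 that miss the threshold of 0.05. Without it the differences of Aim2 at 0, 3, 6 and 24 h were -1.96, -1.79, -1.70 and -2.52, with adjusted p-values of 6.7e-07, 2.8e-06, 1.2e-05 and 8.8e-08 in edgeR. Library totals ran from 19715161 to 21627018 reads. The 6 CD4 T cell markers together held 2664 to 3913 CPM in every group, against 7.74 to 15.7 CPM for Cd8a and Cd8b1. Markers of other blood cells differed between the genotypes and are given beside the genotype results.

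Tnf, Lta and Ltb lie next to each other on chromosome 17 (GRCm38), within 10913 bases. Ltb, whose product holds lymphotoxin at the cell surface, is on the plus strand at chr17:35194439-35196320. Tnf, 3060 bases further on, is on the minus strand at chr17:35199381-35202007, and Lta, which encodes the secreted lymphotoxin alpha, follows 1157 bases beyond it on the minus strand at chr17:35203165-35205351. Tnfsf14, the gene of LIGHT, is on the same chromosome but far away, at chr17:57189492-57194177 on the minus strand. Because the 3 neighbours answered stimulation differently, and Tnf and Tnfsf14 alike, the sequences just before these 4 genes are shown (RefSeq, GRCm38.p6, read 5′ to 3′ on the strand of the gene). Each run ends at the base before the RefSeq start, except that of Ltb, which ends 69 bases upstream of it, outside the gene as the GENCODE annotation draws it. Capitals mark GGAAA or its reverse complement TTTCC, the core bound by NFAT factors, which T cell receptor signals bring into the nucleus.
Tnf, chr17:35202008-35202257, minus strand: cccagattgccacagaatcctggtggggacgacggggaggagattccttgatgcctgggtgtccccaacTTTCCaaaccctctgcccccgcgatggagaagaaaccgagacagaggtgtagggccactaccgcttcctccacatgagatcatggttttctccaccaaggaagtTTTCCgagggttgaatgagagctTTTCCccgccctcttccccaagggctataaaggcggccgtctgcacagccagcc
Tnfsf14, chr17:57194182-57194431, minus strand: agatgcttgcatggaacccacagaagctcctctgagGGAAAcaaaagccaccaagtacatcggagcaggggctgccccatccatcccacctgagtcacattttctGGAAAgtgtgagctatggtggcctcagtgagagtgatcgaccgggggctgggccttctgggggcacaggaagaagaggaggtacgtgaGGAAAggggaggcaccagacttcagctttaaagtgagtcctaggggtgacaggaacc
Lta, chr17:35205352-35205601, minus strand: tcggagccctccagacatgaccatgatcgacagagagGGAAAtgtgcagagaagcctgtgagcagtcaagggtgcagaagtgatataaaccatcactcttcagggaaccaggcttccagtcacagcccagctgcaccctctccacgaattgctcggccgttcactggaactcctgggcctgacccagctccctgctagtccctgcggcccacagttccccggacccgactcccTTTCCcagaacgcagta
Ltb, chr17:35194257-35194438, plus strand: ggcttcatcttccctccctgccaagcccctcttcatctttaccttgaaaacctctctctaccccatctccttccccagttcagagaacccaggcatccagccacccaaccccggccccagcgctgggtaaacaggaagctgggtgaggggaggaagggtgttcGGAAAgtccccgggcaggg

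Tnf and Tnfsf14 each held 3 copies of the core in 250 bases, Lta and Fasl 2, and Ltb, Tnfsf8, Tnfsf10 and Tnfsf11 1. Of the genes with 2 copies, Lta was higher and Fasl lower after 24 h of stimulation. The promoter table used here held 8 of the 10 ligands (not Cd40lg and Tnfsf4), and all 8 had at least 1 copy on either strand, but so did 55.6% of all 32851 promoters searched over the same length. The AP-1 site TGANTCA was found before Tnfsf14 alone, 154 to 160 bases upstream of its start, against 6.75% of all promoters. A kappa-B site was found before Ltb alone, 78 to 87 bases upstream and overlapping the only GGAAA there, against 3.9% of all promoters. TATAAA was found before Tnf at 24 to 29 bases, before Tnfsf11 at 27 to 32 bases on the opposite strand and before Lta at 162 to 167 bases, against 12.4% of all promoters. A match describes these letters only and is not evidence of binding.

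The other 6 genes are spread over the genome. Fasl (chr1:161780689-161788495, minus strand) and Tnfsf4 (chr1:161395409-161418410, plus strand) are both on chromosome 1, on which Aim2 also lies, 11.56 and 11.93 Mb away. Cd40lg is at chrX:57212143-57224042 on the plus strand, Tnfsf8 at chr4:63831308-63861347 on the minus strand, Tnfsf10 at chr3:27317028-27342427 on the plus strand and Tnfsf11 at chr14:78277445-78308043 on the minus strand. Lta and Ltb each contain a microRNA gene on their own strand, Mir6974 and Mir6973a, whose reads could not be told from theirs.

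Resting cells already held large amounts of some of these transcripts and little of others. On the scale of CPM per kb of exon, which allows levels to be compared between genes, Ltb led in unstimulated WT cells with 303 ± 41.9 (SD, n = 3). Cd40lg, the signal to CD40 on B cells and dendritic cells, had 86.7 ± 20.2 and Tnfsf8, the ligand of CD30, 66.0 ± 36.4, and the ranges of these 2 overlapped. Below them came Fasl (31.4 ± 7.37), Tnfsf11 (22.5 ± 3.70), Tnf (19.2 ± 3.31) and Lta (16.1 ± 0.752), each overlapping the next. Tnfsf14 (4.86 ± 1.43), Tnfsf4 (3.95 ± 1.75) and Tnfsf10 (2.65 ± 0.546) were lowest, again with overlapping ranges. Unstimulated Aim2-/- cells had the same top place, Ltb at 266 ± 13.5 CPM per kb, with Tnfsf8 at 106 ± 22.5 and Cd40lg at 87.8 ± 3.59 behind it in overlapping ranges.

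After 24 h the order had turned. Lta led in both genotypes, with 163 ± 23.9 CPM per kb in WT and 209 ± 66.6 in Aim2-/- cells (SD, n = 3 each), and no library of Ltb, the second, reached the range of Lta. Ltb was at 102 ± 11.7 and 118 ± 17.4, and Tnf at 95.2 ± 3.74 and 88.7 ± 17.3, with overlapping ranges of Ltb and Tnf in both genotypes. Tnfsf4 was lowest, at 2.14 ± 0.222 and 2.26 ± 1.17 CPM per kb. At 3 and 6 h Ltb had still led in both genotypes, with 357 ± 35.4 in WT and 337 ± 45.6 in Aim2-/- cells at 6 h, when Tnf had reached 225 ± 4.62 and 145 ± 3.26.

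**Figure D1:**
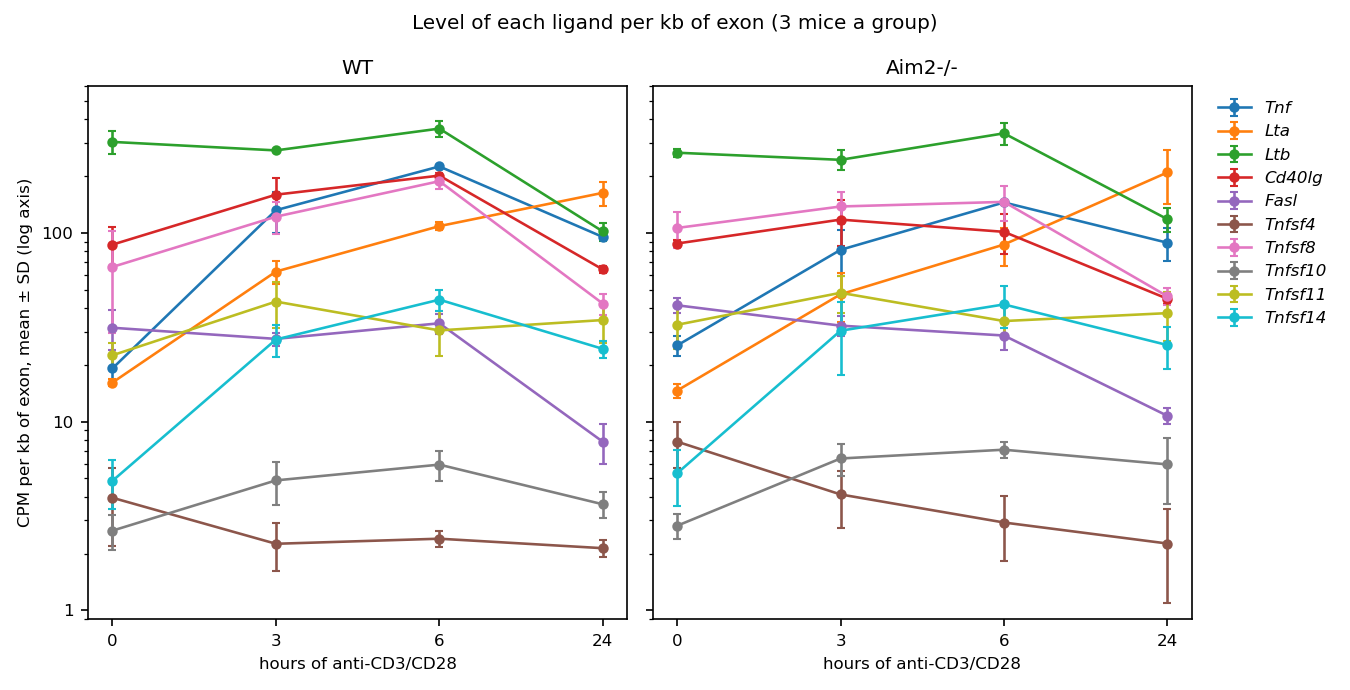
Mean CPM per kb of exon (log axis) of the 10 ligands at 0, 3, 6 and 24 h, drawn as evenly spaced categories, in WT cells (left) and Aim2-/- cells (right). Bars are the SD of 3 mice. Ltb is highest up to 6 h and is passed by Lta at 24 h in both panels.

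Stimulation raised many of the ligands early, and others were below their start by 24 h. In WT cells 7 of 10 rose at 3 h (Tnf, Lta, Cd40lg, Tnfsf8, Tnfsf10, Tnfsf11 and Tnfsf14) where 16.2% of all genes tested rose, and 6 rose at 6 h (the same genes less Tnfsf11) against 26.4%. A rise or fall means an adjusted p under 0.05 in edgeR's quasi-likelihood test with Benjamini-Hochberg adjustment over all genes. At 24 h, 4 were higher than at 0 h (Tnf, Lta, Tnfsf11 and Tnfsf14), close to the 36.6% of all genes, and 5 were lower (Ltb, Cd40lg, Fasl, Tnfsf4 and Tnfsf8) against 34.8%. Of these 5, limma-voom called only 2, Ltb and Fasl, and so did edgeR without the mouse labelled WT 1, where 3 were called higher. No member fell at 3 h, where 16.4% of genes did, or at 6 h, where 24.8% did. At an unadjusted p under 0.05, 1 ligand fell at 3 h and 0 at 6 h, and neither DESeq2 nor limma-voom called any fall at these times. Tnfsf4 was called lower at 3 h without a filter on low counts (-0.81, adjusted p = 0.0485) and, with the mouse as a block, at 3 h (-0.78, adjusted p = 0.00612) and 6 h (-0.67, adjusted p = 0.0112). The median log2 change of the 10 was 0.88 at 3 h and 1.19 at 6 h, against 0.02 for all genes at both times, and 0.01 at 24 h, against -0.01.

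In Aim2-/- cells 4 of 10 rose at 3 h (Tnf, Lta, Tnfsf10 and Tnfsf14), where 16.1% of all genes rose, and 5 at 6 h (with Ltb) against 28.5%. At 24 h 4 were higher (Tnf, Lta, Tnfsf10 and Tnfsf14) against 36.8% of all genes and 5 lower, the ligands lower in WT, against 33.5%. At 6 h Fasl and Tnfsf4 were lower, 2 of 10 against 22.7%. None fell at 3 h, where 14.6% of genes did, although 2 did so at an unadjusted p under 0.05, and DESeq2 and limma-voom each called 1. Each mouse gave all 4 times, and with the mouse as a block 7 ligands were called at 3 h, Tnfsf11 as higher (log2 change 0.58, adjusted p = 0.000873) and Fasl (-0.36, adjusted p = 0.0337) and Tnfsf4 (-0.95, adjusted p = 0.000642) as lower. The share of all genes called at 3 h with the block is not given here. The 7 are therefore not to be set against the shares above. The median log2 change of the 10 was 0.49, 0.40 and -0.38 at 3, 6 and 24 h, against 0.02, 0.08 and 0.03 for all genes.

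**Figure D2:**
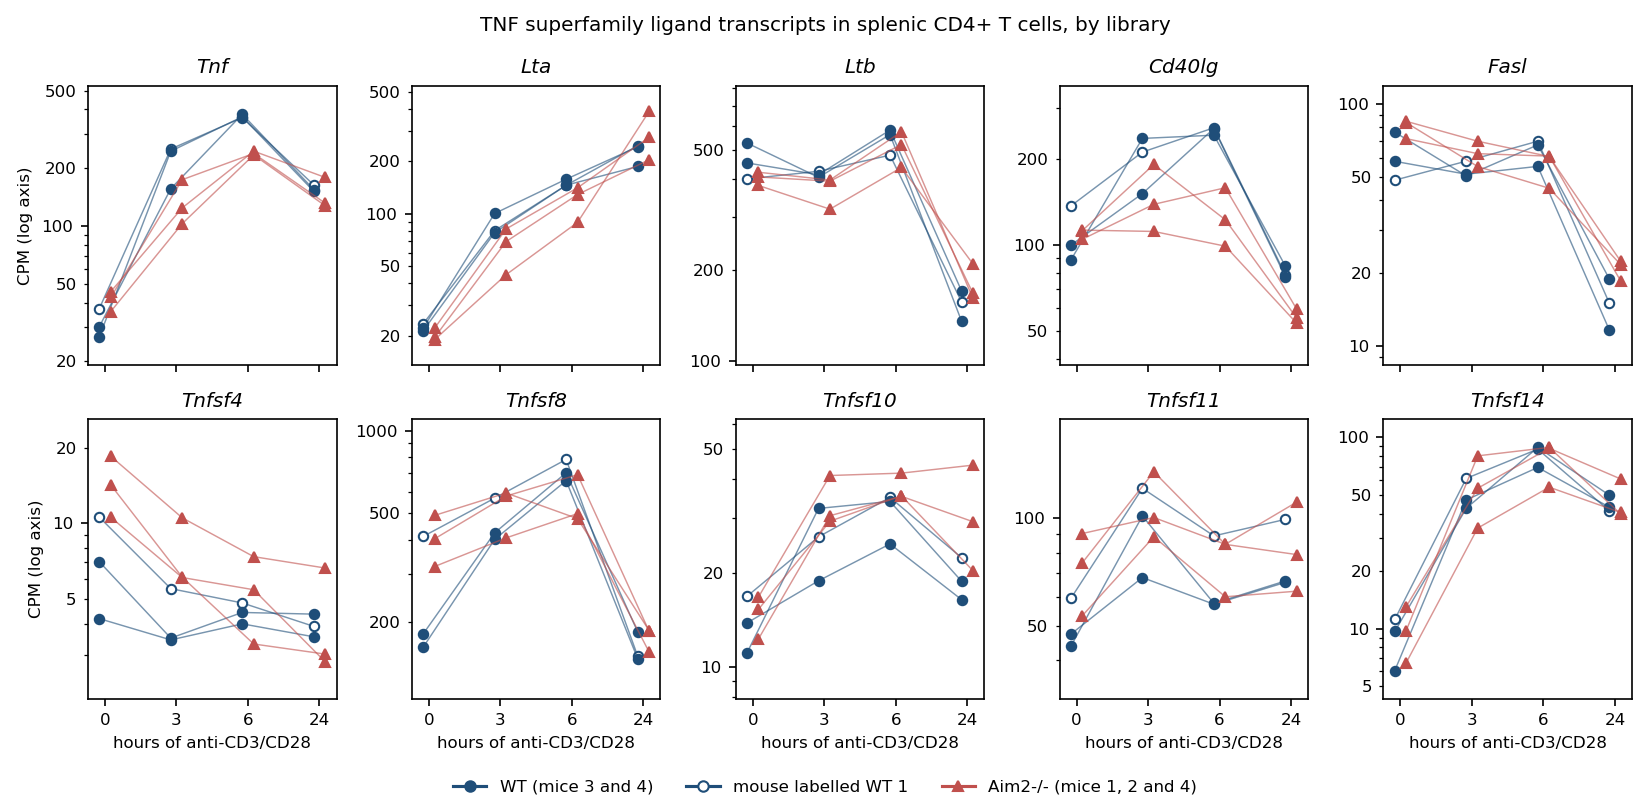
CPM (log axis, scaled for each gene) of each ligand in all 24 libraries against hours of stimulation, drawn as evenly spaced categories, with lines joining the libraries of a mouse. Blue circles are WT, open for the mouse labelled WT 1, and red triangles are Aim2-/-. Tnf, Lta and Tnfsf14 climb in every mouse, and the WT and Aim2-/- points of Tnf and Cd40lg separate at 6 h.

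**Figure D3:**
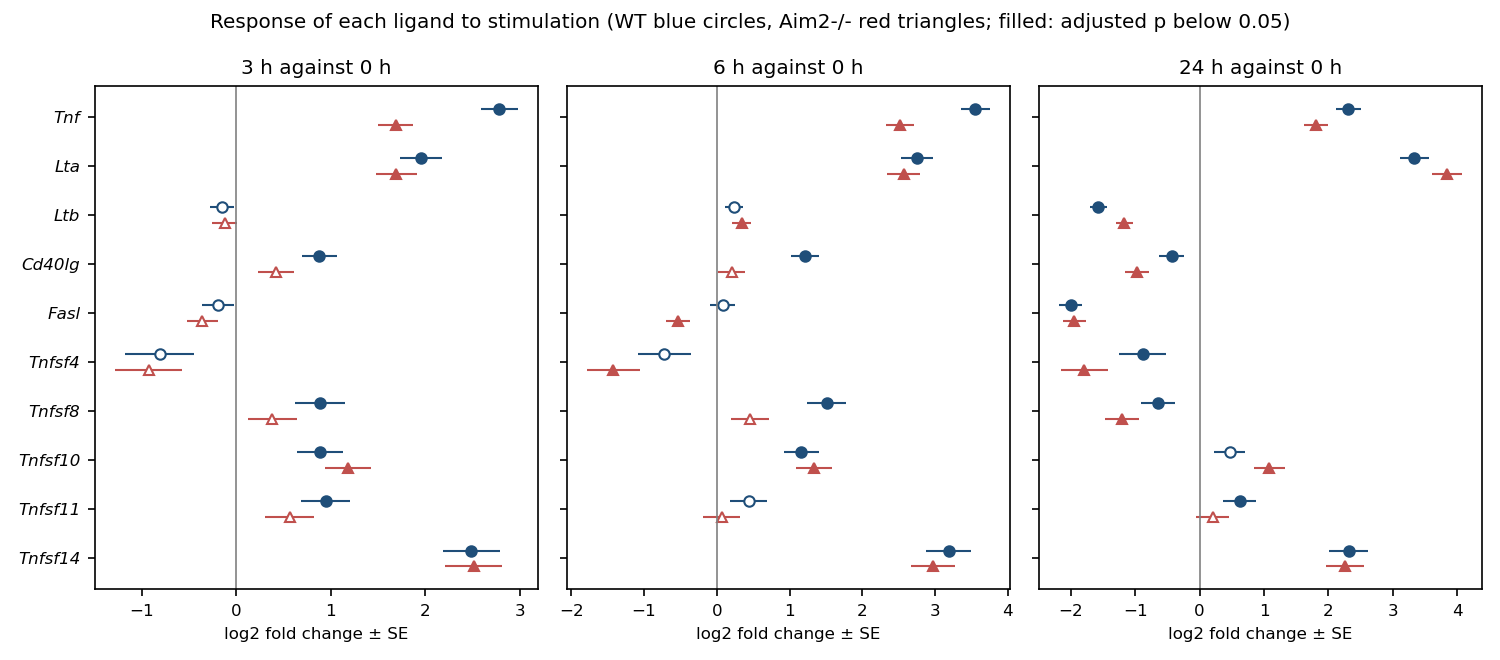
Log2 fold change against 0 h with its SE for each ligand at 3, 6 and 24 h, in WT (blue circles) and Aim2-/- cells (red triangles), filled where the adjusted p was under 0.05. At 24 h Tnf, Lta and Tnfsf14 lie right of 0 and Ltb, Cd40lg, Fasl, Tnfsf4 and Tnfsf8 left of it in both genotypes.

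Tnf, the inflammatory cytokine that gave the family its name, was among the steepest responders. Unstimulated WT mice 1, 3 and 4 had 37.4, 26.7 and 30.1 CPM, which became 249.6, 243.2 and 155.6 at 3 h, 362.8, 366.0 and 377.2 at 6 h and 162.8, 150.9 and 154.1 at 24 h. Aim2-/- mice 1, 2 and 4 started at 45.7, 36.1 and 42.7 CPM and reached 123.9, 102.7 and 173.3 at 3 h, 243.3, 232.8 and 236.7 at 6 h and 178.0, 127.0 and 131.0 at 24 h. All mice peaked at 6 h, and all were still above their start at 24 h. The log2 changes in WT at 3, 6 and 24 h were 2.78 (SE 0.19), 3.55 (SE 0.20) and 2.31 (SE 0.19), with adjusted p-values of 1.6e-09, 2.5e-11 and 5.7e-10. In Aim2-/- cells it was 1.68, 2.52 and 1.81, each with an SE of 0.19 and called.

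Tnfsf14, encoding LIGHT, which binds HVEM and the lymphotoxin beta receptor, followed a course like that of Tnf from a lower start. WT mice 1, 3 and 4 had 11.2, 6.05 and 9.69 CPM at 0 h, 61.1, 47.2 and 42.7 at 3 h, 86.9, 69.8 and 88.8 at 6 h and 41.4, 43.3 and 50.0 at 24 h. Aim2-/- cells of mice 1, 2 and 4 had 13.1, 6.65 and 9.80 CPM, then 54.3, 33.6 and 80.2, then 87.8, 55.0 and 88.7, and at last 60.7, 40.6 and 39.8. The genotypes overlapped at all 4 times. The log2 change at 6 h was 3.19 (SE 0.31, adjusted p = 2.9e-08) in WT and 2.97 (SE 0.30, adjusted p = 9.6e-08) in Aim2-/- cells.

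Lta was the ligand that went on rising to the end. WT mice 1, 3 and 4 had 23.4, 21.4 and 22.1 CPM at 0 h, 80.2, 78.0 and 100.6 at 3 h, 146.0, 146.2 and 158.2 at 6 h and 246.2, 187.2 and 242.7 at 24 h. In Aim2-/- mice 1, 2 and 4 Lta went from 19.0, 19.6 and 22.1 CPM through 44.8, 69.4 and 82.0 at 3 h and 89.5, 129.2 and 141.3 at 6 h to 387.3, 204.6 and 275.5 at 24 h. Every mouse was highest at 24 h, and Aim2-/- mouse 1 had the lowest value of all mice at 3 and 6 h and the highest at 24 h. The 24 h change was 3.34 (SE 0.23, adjusted p = 4.0e-11) on the log2 scale in WT and 3.84 (SE 0.24, adjusted p = 9.7e-12) in Aim2-/- cells.

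Ltb, whose product pairs with lymphotoxin alpha in the membrane-bound form of lymphotoxin, went the other way from its neighbour by 24 h. WT mice 1, 3 and 4 had 400.6, 526.8 and 452.5 CPM at 0 h, 424.6, 405.5 and 413.6 at 3 h, 480.2, 561.7 and 581.4 at 6 h and only 156.9, 135.4 and 170.5 at 24 h. Aim2-/- mice 1, 2 and 4 had 381.0, 421.5 and 406.6 CPM, then 318.0, 397.2 and 393.7, then 437.1, 574.3 and 520.7, and 209.4, 161.0 and 167.3 at 24 h. In both genotypes all 24 h libraries lay below all earlier ones. The log2 change of Ltb from 0 to 24 h was -1.58 in WT (SE 0.13, adjusted p = 6.8e-10) and -1.17 in Aim2-/- cells (SE 0.13, adjusted p = 6.6e-08). At 6 h it was called higher in Aim2-/- cells (log2 change 0.34, adjusted p = 0.0302) and had 0.23 in WT (adjusted p = 0.133, or 0.0330 with library totals only), and these 2 responses were not called different (0.11, adjusted p = 0.864). The Aim2-/- call of Ltb was lost without mouse Aim2-/- 2 (0.28, adjusted p = 0.146) or mouse Aim2-/- 4 (0.33, adjusted p = 0.132), and also with RLE size factors (0.28, adjusted p = 0.0661), DESeq2 (0.28, adjusted p = 0.0546), no filter on low counts (0.30, adjusted p = 0.0674) and only the libraries compared (0.30, adjusted p = 0.0733).

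Cd40lg rose and then fell in WT cells. WT mice 1, 3 and 4 had 136.8, 88.5 and 99.8 CPM at 0 h, 211.1, 235.7 and 151.1 at 3 h, 256.8, 241.9 and 255.2 at 6 h and 78.5, 84.3 and 77.3 at 24 h. Aim2-/- mice 1, 2 and 4 began at 112.6, 104.6 and 112.2 CPM, had 111.4, 138.6 and 191.1 at 3 h and 98.9, 158.4 and 122.4 at 6 h, and ended at 53.1, 59.5 and 55.4. In Aim2-/- mouse 1 the transcript was no higher at 3 or 6 h than at 0 h. The WT rise was 0.88 on the log2 scale at 3 h (SE 0.19, adjusted p = 0.00103) and 1.21 at 6 h (SE 0.19, adjusted p = 1.5e-05), whereas the Aim2-/- values were 0.42 (adjusted p = 0.0978) and 0.20 (adjusted p = 0.381). By 24 h Cd40lg was below its start, with log2 changes of -0.44 in WT (adjusted p = 0.0440) and -0.97 in Aim2-/- cells (adjusted p = 0.000122). The 3 h call in WT was lost without WT 3 (0.60, adjusted p = 0.0817), and the 24 h call without the mouse labelled WT 1 (-0.22, adjusted p = 0.412) or without WT 4 (-0.51, adjusted p = 0.0658). Without Aim2-/- 1 the 3 h value in Aim2-/- cells became a call (0.60, adjusted p = 0.0391), as it did with library totals only and without a filter on low counts.

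Tnfsf8, the ligand of CD30, had the same shape in WT cells. WT mice 1, 3 and 4 had 411.2, 161.9 and 181.1 CPM at 0 h, 567.4, 401.0 and 423.7 at 3 h, 785.9, 657.4 and 702.6 at 6 h and 150.5, 147.2 and 184.4 at 24 h. Aim2-/- mice 1, 2 and 4 had 490.8, 403.1 and 319.3 CPM, then 592.6, 577.4 and 406.2, then 477.6, 691.3 and 498.3, and 186.4, 185.3 and 155.6 at 24 h. Before stimulation the mouse labelled WT 1 was at the Aim2-/- level for this gene as for Aim2. The WT rise was a log2 change of 0.88 after 3 h (SE 0.26, adjusted p = 0.0122) and of 1.51 after 6 h (SE 0.26, adjusted p = 6.2e-05), and the Aim2-/- values were 0.38 (adjusted p = 0.305) and 0.46 (adjusted p = 0.149, or 0.0334 with the mouse as a block). At 24 h Tnfsf8 was lower than at 0 h, with log2 changes of -0.65 in WT (adjusted p = 0.0327) and -1.20 in Aim2-/- cells (adjusted p = 0.000387). The 3 h call in WT was lost without WT 3 (0.73, adjusted p = 0.107) or WT 4 (0.73, adjusted p = 0.123), and at 24 h the WT value without the mouse labelled WT 1 was -0.050 (adjusted p = 0.851).

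Tnfsf10, encoding the death ligand TRAIL, was the only ligand besides Tnf, Lta and Tnfsf14 that rose at 3 and 6 h in both genotypes. It had 11.1 to 16.9 CPM at 0 h in WT and 12.3 to 16.8 CPM in Aim2-/- mice, and at 6 h 24.8 to 34.9 and 35.2 to 41.7 CPM, so that all stimulated libraries of that time lay above all unstimulated ones. The log2 change at 6 h was 1.16 (SE 0.24, adjusted p = 0.000405) in WT and 1.34 (SE 0.24, adjusted p = 0.000101) in Aim2-/- cells. At 24 h it remained called in Aim2-/- cells (1.08, adjusted p = 0.000501), with 44.3, 20.4 and 29.2 CPM in mice 1, 2 and 4, and not in WT (0.46, adjusted p = 0.0950, or 0.0205 with the mouse as a block), with 16.5 to 22.4 CPM. The 3 h call in WT (0.88, adjusted p = 0.00755) was lost without WT 4 (0.52, adjusted p = 0.226).

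Tnfsf11, the gene of RANKL, drives the formation of osteoclasts and supports dendritic cells. Its mean was highest at 3 h in both genotypes, in ranges that overlapped those at 24 h. It had 43.8 to 59.6 CPM in unstimulated WT and 53.3 to 90.4 CPM in unstimulated Aim2-/- cells, and between 57.4 and 134.4 CPM in all stimulated libraries. In WT it was higher at 3 h (log2 change 0.94, SE 0.26, adjusted p = 0.00741) and at 24 h (0.62, adjusted p = 0.0377), and the 6 h value of 0.44 (adjusted p = 0.168) was called with the mouse as a block (0.42, adjusted p = 0.00882) and without a filter on low counts (0.44, adjusted p = 0.0327). The 3 h call was lost without WT 3 (0.80, adjusted p = 0.0993), and the 24 h call without any of the mice labelled WT 1, WT 3 and WT 4 (0.54 to 0.64, adjusted p = 0.0737 to 0.138), with RLE size factors (0.56, adjusted p = 0.0515) and with library totals only (0.61, adjusted p = 0.0539). Aim2-/- values of 0.56, 0.07 and 0.21 at 3, 6 and 24 h were not called in the fit without the block.

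Fasl, the gene of Fas ligand, fell late and strongly. WT mice 1, 3 and 4 had 48.4, 57.9 and 76.4 CPM at 0 h, 58.0, 51.2 and 50.4 at 3 h, 70.1, 55.2 and 67.7 at 6 h and 15.0, 11.6 and 18.9 at 24 h. In Aim2-/- mice 1, 2 and 4 the values were 83.7, 71.8 and 84.8 CPM, then 55.1, 62.3 and 70.1, then 44.8, 60.8 and 60.6, and 21.6, 18.5 and 22.3 at 24 h. All 24 h libraries were below all others. By 24 h Fasl had fallen to 0.249 of its start in WT (SE 0.18 on the log2 scale, adjusted p = 2.0e-09) and to 0.260 in Aim2-/- cells (log2 change -1.94, SE 0.18, adjusted p = 3.1e-09). In Aim2-/- cells Fasl was also lower at 6 h (-0.53, adjusted p = 0.0114), a call lost without Aim2-/- 1 (-0.37, adjusted p = 0.146) or Aim2-/- 4 (-0.56, adjusted p = 0.0501).

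Tnfsf4, encoding OX40 ligand, which is best known from antigen-presenting cells, was among the scarcest ligands and was lower at 24 h than before stimulation. Unstimulated WT mice 1, 3 and 4 had 10.6, 4.19 and 7.05 CPM and unstimulated Aim2-/- mice 1, 2 and 4 had 18.5, 10.6 and 14.2. At 24 h the values were 3.90, 3.55 and 4.36 CPM in WT and 6.65, 2.82 and 3.03 in Aim2-/- mice. The 24 h change was -0.89 (SE 0.37, adjusted p = 0.0364) in WT and -1.79 (SE 0.37, adjusted p = 0.000205) in Aim2-/- cells, and the 6 h change was -0.72 (adjusted p = 0.107) and -1.42 (adjusted p = 0.00251). The WT call at 24 h was lost without the mouse labelled WT 1 (-0.51, adjusted p = 0.324) or without WT 4 (-1.03, adjusted p = 0.0743), and the Aim2-/- value at 3 h (-0.93, adjusted p = 0.0540) became a call without Aim2-/- 1 (-1.02, adjusted p = 0.0344). That 3 h value was also called with RLE size factors, DESeq2, limma-voom, no filter on low counts, only the libraries compared and the mouse as a block.

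Between consecutive times the ligands parted after 6 h. From 3 to 6 h, Tnf, Lta and Ltb rose in both genotypes, 3 of 10 against 14.2% of all genes in WT and 13.4% in Aim2-/- cells. No ligand fell in this step, where 11.5% and 9.89% of genes did, and none did so at an unadjusted p under 0.05, in DESeq2 or in limma-voom. With the mouse as a block 6 ligands were called in WT, with Tnfsf8 (0.64) and Tnfsf14 (0.70) higher and Tnfsf11 lower (-0.51), and 5 in Aim2-/- cells, with Tnfsf14 higher (0.48) and Tnfsf11 lower (-0.51). The shares of all genes called in this step with the block are not given here. The 6 and 5 are therefore not to be set against the shares above. The WT rise of Tnf was 0.77 (adjusted p = 0.00303) and 0.57 (adjusted p = 0.0799) without WT 4. That of Lta was 0.80 (adjusted p = 0.00745), and 0.77 (adjusted p = 0.0633) or 0.72 (adjusted p = 0.0952) without the mouse labelled WT 1 or WT 3. That of Ltb was 0.38 (adjusted p = 0.0308), and 0.32 (adjusted p = 0.214) or 0.33 (adjusted p = 0.252) without WT 3 or WT 4. In Aim2-/- cells the rise of Ltb of 0.47 (adjusted p = 0.0115) was lost without Aim2-/- 2 (0.43, adjusted p = 0.0717) or Aim2-/- 4 (0.50, adjusted p = 0.0604), and without the mouse labelled WT 1 that of Tnfsf8 in WT became a call (0.72, adjusted p = 0.0247).

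From 6 to 24 h, 7 of 10 fell in WT (Tnf, Ltb, Cd40lg, Fasl, Tnfsf8, Tnfsf10 and Tnfsf14) against 28% of all genes, and 6 in Aim2-/- cells (the same less Tnfsf10) against 27%. Lta alone rose, 1 of 10 against 29.6% and 27.4%. The steepest falls in WT were those of Tnfsf8 (-2.15, SE 0.27), Fasl (-2.08, SE 0.18), Ltb (-1.81, SE 0.13) and Cd40lg (-1.65, SE 0.19), and in Aim2-/- cells the same genes had -1.66, -1.41, -1.51 and -1.18. Lta rose by 0.59 in WT (adjusted p = 0.0205) and by 1.27 in Aim2-/- cells (adjusted p = 3.6e-05). The WT rise was lost without each of the mice labelled WT 1, WT 3 and WT 4 (0.50, 0.66 and 0.55, adjusted p = 0.152, 0.0550 and 0.109). Calls of Tnfsf10 in WT (-0.70) were lost without the mouse labelled WT 1 (-0.74, adjusted p = 0.0552) or WT 4 (-0.64, adjusted p = 0.0798), of Tnfsf14 in WT (-0.87) without the mouse labelled WT 1 (-0.77, adjusted p = 0.0812) and of Tnfsf14 in Aim2-/- cells (-0.71) without Aim2-/- 4 (-0.50, adjusted p = 0.225).

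Aim2-/- cells had less Tnf and Cd40lg than WT cells after 6 h of stimulation. At that time 2 of 10 ligands were called, a share near the 15.8% of all genes tested. Cd40lg stood at 256.8, 241.9 and 255.2 CPM in WT and 98.9, 158.4 and 122.4 CPM in Aim2-/- mice, with no overlap. The log2 difference was -0.99 (SE 0.19, adjusted p = 0.0056), and -0.98 (adjusted p = 0.0113) without the mouse labelled WT 1. Tnf stood at 362.8 to 377.2 CPM in WT and 232.8 to 243.3 CPM in Aim2-/- mice, with no overlap and a log2 difference of -0.63 (SE 0.18, adjusted p = 0.0258), and -0.65 (adjusted p = 0.0436) without the mouse labelled WT 1. Tnf passed the threshold by little, and the call was lost without WT 3 (-0.68, adjusted p = 0.0774), WT 4 (-0.66, adjusted p = 0.0612), Aim2-/- 1 (-0.65, adjusted p = 0.0830) or Aim2-/- 4 (-0.63, adjusted p = 0.0657), whereas Cd40lg was called under every alternative setting tried. DESeq2 and limma-voom called the same number, 2. At 6 h the mouse labelled WT 1, at the Aim2-/- level for Aim2, lay with WT 3 and WT 4 for both genes. It had 256.8 CPM of Cd40lg and 362.8 CPM of Tnf.

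**Figure D4:**
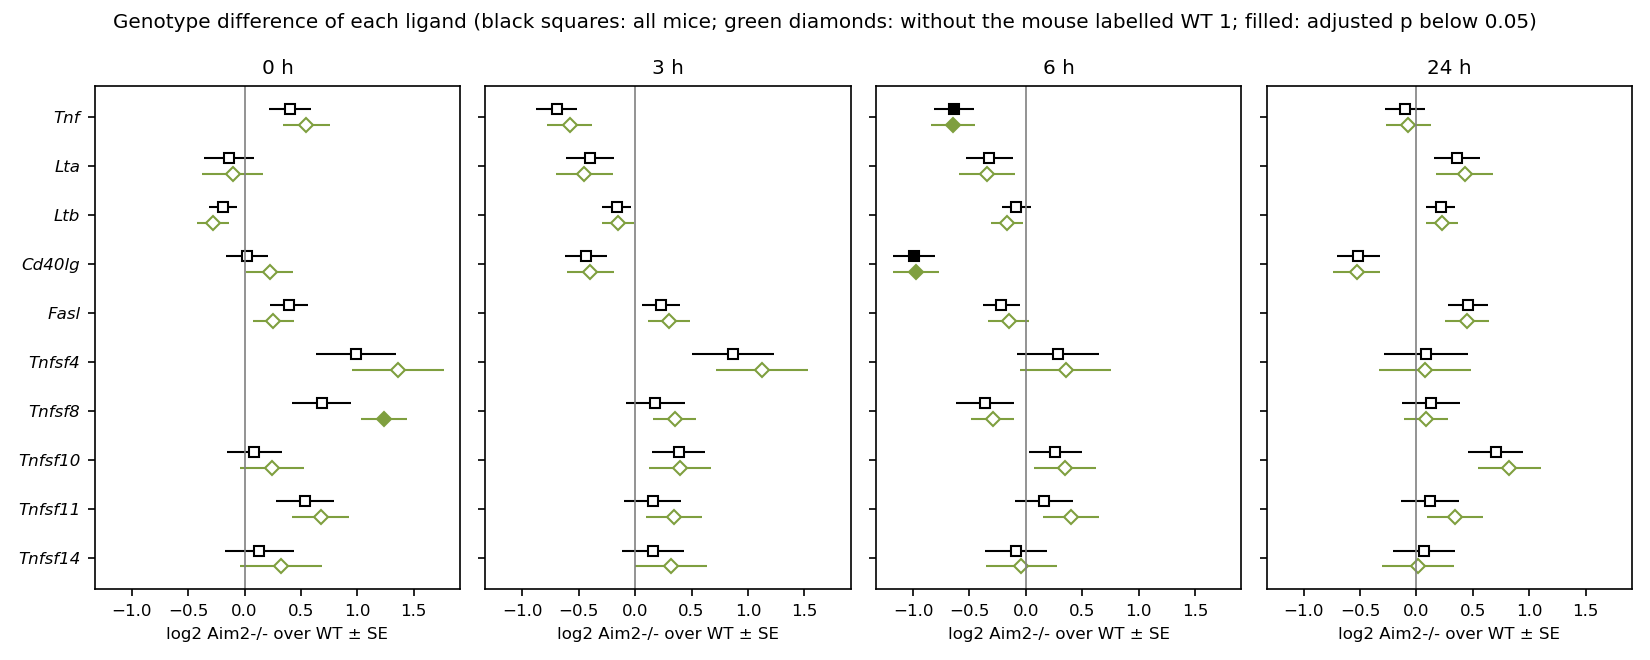
Log2 difference of Aim2-/- over WT cells with its SE for each ligand at 0, 3, 6 and 24 h, with all mice (black squares) and without the mouse labelled WT 1 (green diamonds), filled where the adjusted p was under 0.05. At 6 h Cd40lg (-0.99) and Tnf (-0.63) are filled in both series, and at 0 h Tnfsf8 is filled only without the mouse labelled WT 1.

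At 0, 3 and 24 h no ligand was called between the genotypes in edgeR, where 5.23%, 0.294% and 0.666% of all genes were. At an unadjusted p under 0.05 there were 4 ligands at 0 h, all higher in Aim2-/- cells, 3 at 3 h, of which 1 was higher and 2 were lower, and 3 at 24 h, of which 2 were higher and 1 was lower. DESeq2 called 1 of them, lower at 3 h, and limma-voom called none. Among the differences were those of Tnfsf4 (0.99, SE 0.36, adjusted p = 0.101) and Tnfsf8 (0.69, SE 0.26, adjusted p = 0.117) at 0 h, Tnfsf4 (0.87, SE 0.36, adjusted p = 0.267) and Tnf (-0.70, SE 0.18, adjusted p = 0.0873) at 3 h and Tnfsf10 (0.70, SE 0.24, adjusted p = 0.127) at 24 h. Without the mouse labelled WT 1, Tnfsf8 at 0 h became a call, with WT mice 3 and 4 at 161.9 and 181.1 CPM against 319.3 to 490.8 CPM in Aim2-/- mice, a log2 difference of 1.24 (SE 0.20, adjusted p = 0.00257). Of all genes, 5.77%, 2.71%, 11.4% and 1.05% were called at 0, 3, 6 and 24 h without that mouse, and of the ligands 1, 0, 2 and 0. Without Aim2-/- 2, Tnfsf10 at 24 h became a call (0.93, adjusted p = 0.0159).

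The 3 WT and 3 Aim2-/- libraries did not overlap for 0, 2, 4 and 1 of the 10 ligands at 0, 3, 6 and 24 h, where 28.5%, 15.1%, 35.6% and 21.3% of all genes tested did not. At 3 h these were Ltb, lower in Aim2-/- cells (318.0 to 397.2 against 405.5 to 424.6 CPM), and Tnfsf4, higher (6.10 to 10.5 against 3.45 to 5.51 CPM). At 6 h Tnf, Lta and Cd40lg were lower and Tnfsf10 was higher, and at 24 h Cd40lg was lower (53.1 to 59.5 against 77.3 to 84.3 CPM). These shares lie near or below those of all genes.

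The genotype difference in the response to stimulation, that is the change from 0 h in Aim2-/- cells less that in WT, was called for no ligand in the fit without the block, in which 0%, 0.0261% and 0% of all genes were called at 3, 6 and 24 h. At an unadjusted p under 0.05 there were 1, 4 and 1 ligands, of which DESeq2 called 0, 2 and 0 and limma-voom none. With the mouse as a block, 0.0587%, 4.68% and 2.77% of all genes were called, and 3 ligands at 6 h, with a smaller rise in Aim2-/- cells for each. Tnf had multiplied by 9.71, 13.7 and 12.5 from 0 to 6 h in WT mice 1, 3 and 4, against 5.32, 6.45 and 5.54 in Aim2-/- mice 1, 2 and 4, a log2 difference of -1.04 (SE 0.21, adjusted p = 0.0127; without the block adjusted p = 0.0833). Cd40lg had multiplied by 1.88, 2.73 and 2.56 against 0.879, 1.51 and 1.09, a difference of -1.04 (SE 0.23, adjusted p = 0.0154; without the block -1.01, adjusted p = 0.0985). Tnfsf8 had multiplied by 1.91, 4.06 and 3.88 against 0.973, 1.72 and 1.56, a difference of -1.12 (SE 0.26, adjusted p = 0.0199; without the block -1.05, adjusted p = 0.215). For Tnf and Tnfsf8 the higher Aim2-/- start, 36.1 to 45.7 CPM of Tnf against 26.7 to 37.4 in WT, enters the difference together with the 6 h level.

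These 3 calls were lost when either of 2 single mice was left out. With the block and without the mouse labelled WT 1 all 3 were called, at -1.18 (adjusted p = 0.0173) for Tnf, -1.22 (adjusted p = 0.0166) for Cd40lg and -1.52 (adjusted p = 0.000851) for Tnfsf8. Without WT 3 none was called (Tnf -0.94, adjusted p = 0.0893, Cd40lg -0.95, adjusted p = 0.0893, Tnfsf8 -0.92, adjusted p = 0.158), nor was any other gene, and without Aim2-/- 1 none was (-0.98, adjusted p = 0.0774, -0.85, adjusted p = 0.110 and -0.88, adjusted p = 0.163). Of all 15402 genes tested without Aim2-/- 1, 9 were called. Tnfsf8 was also lost without WT 4 (-0.97, adjusted p = 0.0672) or Aim2-/- 4 (-1.22, adjusted p = 0.0508).

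Markers of other blood cells moved with the genotype. At 6 h the 6 granulocyte and mast cell or basophil markers (Mpo, Elane, S100a8, Mcpt8, Cpa3 and Prss34) summed to 15.2 to 29.0 CPM in WT and 109.1 to 243.7 CPM in Aim2-/- mice, and 5 of 6 were called higher. The 7 myeloid markers summed to 24.9 to 50.8 and 64.3 to 199.5 CPM (1 of 7 called higher), the 6 B cell markers to 3.51 to 6.87 and 11.4 to 38.4 CPM (2 of 5 tested), the 4 erythroid markers to 3.70 to 25.7 and 10.8 to 204.2 CPM, the 4 NK cell markers to 11.6 to 17.1 and 14.6 to 24.2 CPM and the CD8 T cell markers to 7.74 to 8.96 and 8.09 to 13.4 CPM, none of these last called. At 0 h granulocyte markers summed to 29.8 to 34.1 CPM in WT and 149.1 to 317.3 CPM in Aim2-/- mice, with 5 of 6 called. No marker was without a count in a whole group. The CD4 T cell markers summed to 2892 to 3355 and 3108 to 3340 CPM at 6 h, with 1 of 6, Cd3g, called higher. Without the mouse labelled WT 1, 5 of 6 granulocyte markers were called higher at 0 and at 6 h, and at 6 h 1 of 7 myeloid, 2 of 6 B cell, 1 of 4 erythroid and 2 of 6 CD4 T cell markers. The part of these cells in the differences of Tnf, Cd40lg and Tnfsf8, and in the genotype differences of the gene lists below, was not tested.

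The genes around the ligands include their receptors. Of the 13 receptors of the 10 ligands 12 were tested, and at 24 h 3 were higher and 6 lower than at 0 h in each genotype, where 36.6% of all genes were higher and 34.8% lower in WT, and 36.8% and 33.5% in Aim2-/- cells. In WT there were 2 higher and 6 lower without the mouse labelled WT 1. The largest changes in WT were those of Tnfrsf1b, the TNF receptor of lymphocytes, Tnfrsf23, a decoy receptor of TRAIL with close paralogs that can share reads, and Tnfrsf8, which is CD30. Tnfrsf1b stood at 839.0 ± 49.8 CPM before and 134.5 ± 28.0 CPM after 24 h in WT (SD, n = 3), and at 1252 ± 138 and 151.6 ± 20.6 CPM in Aim2-/- cells, which are log2 changes of -2.64 and -3.05 (SE 0.17 each). Tnfrsf23 changed by -2.44 and -1.89 and Tnfrsf8, the receptor of Tnfsf8, by 1.94 and 1.93, the mean WT level being 4.15 CPM at first and 16.0 CPM at last. At 3 and 6 h, 2 and 4 receptors were higher in each genotype, and 2 and 2 were lower in WT and 2 and 4 in Aim2-/- cells. Of all genes in WT, 16.2% and 26.4% were higher at these times and 16.4% and 24.8% lower. In Aim2-/- cells 16.1% and 28.5% were higher and 14.6% and 22.7% lower. Without the mouse labelled WT 1, 1 and 2 receptors were higher in WT at 3 and 6 h. Between the genotypes 3 receptors were called higher in Aim2-/- cells at 0 h (Ltbr, Tnfrsf4 and Tnfrsf1b, at 1.75, 0.78 and 0.58), and at 6 h Cd40 (1.89) and Tnfrsf4 (0.62) were higher and Tnfrsf14 (-0.99) and Tnfrsf10b (-0.79) lower. These 6 were named after their values were seen. For this list and those that follow, 5.23% and 15.8% of all genes tested were called between the genotypes at 0 and 6 h. The part that other blood cells, whose markers differed between the genotypes, had in these receptor differences was not tested. Without the mouse labelled WT 1, Ltbr at 0 h (1.94, adjusted p = 0.0566) and Cd40 (1.84, adjusted p = 0.0764) and Tnfrsf14 (-0.82, adjusted p = 0.0799) at 6 h were not called, and Tnfrsf1a was called lower at 3 and 6 h (-0.38 and -0.29) and Tnfrsf8 higher at 6 h (1.56).

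Of the 14 adaptors and kinases behind the receptors, 1 was higher and 9 were lower at 24 h in each genotype, against the shares of all genes just given. At 6 h 2 were higher and 6 lower in each, against 26.4% and 24.8% of all genes in WT and 28.5% and 22.7% in Aim2-/- cells. At 3 h there were 2 and 5 in WT, against 16.2% and 16.4%, and 3 and 3 in Aim2-/- cells, against 16.1% and 14.6%. The WT counts without the mouse labelled WT 1 were 2 and 3 at 3 h, 2 and 3 at 6 h and 1 and 8 at 24 h. Birc2, encoding the ubiquitin ligase cIAP1, changed by -2.20 and -1.86 at 24 h in WT and Aim2-/- cells, Map3k14, the kinase NIK of the non-canonical NF-κB pathway, by -2.03 and -2.10, and Traf1 by -1.87 and -1.81. Between the genotypes 1 was lower in Aim2-/- cells at 0 h, and 1 was higher and 4 were lower at 6 h (2 lower without the mouse labelled WT 1). All 6 genes for the decay of ligand mRNA were lower at 24 h in both genotypes, where 34.8% of all genes were lower in WT and 33.5% in Aim2-/- cells. Zfp36l2 had -2.41 in WT and -2.09 in Aim2-/- cells, Zfp36, which encodes tristetraprolin, a protein that binds the AU-rich elements of Tnf mRNA, had -1.83 and -1.97, and Zc3h12a, the RNase Regnase-1, had -1.67 and -1.92. At 3 and 6 h in WT 1 was higher and 4 were lower, in Aim2-/- cells 3 and 5 were lower, and at 6 h 4 were lower in Aim2-/- than in WT cells, where 15.8% of all genes differed. Without the mouse labelled WT 1 there were 1 higher and 2 lower at 3 h and 2 and 4 at 6 h in WT, and 1 and 3 lower in Aim2-/- than in WT cells at 3 and 6 h.

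Of the 5 genes for the shedding of ligands, 2 were higher and 3 lower at 24 h in each genotype, against the same shares of all genes as above. Adam10 rose by 0.67 and 0.30 and Sppl2b, a protease that cuts the membrane stub of TNF, by 0.62 and 0.83, and Rhbdf2, a partner of the TNF convertase ADAM17, changed by -0.75 and -0.52. At 3 h 2 were higher in each genotype, at 6 h 1 was higher in each and 1 lower in Aim2-/- cells, and between the genotypes 1 was higher and 1 lower at 6 h. Leaving out the mouse labelled WT 1 left 1 higher at 3 h in WT and 0 between the genotypes. Of 8 further ligands of the family 4 were tested (Tnfsf9, Tnfsf12, Tnfsf13b and Cd70). In WT 0, 1 and 1 were higher at 3, 6 and 24 h and 1 was lower at 24 h, and in Aim2-/- cells 0, 1 and 1 were higher. Cd70, the ligand of CD27, rose at 24 h by 1.77 (adjusted p = 0.0487) in WT and 2.39 (adjusted p = 0.00698) in Aim2-/- cells on 29 reads or fewer a library, and Tnfsf12 (-2.26, adjusted p = 0.0438, in WT) had 18 reads or fewer, near the floor. Without the mouse labelled WT 1 none of the 4 was called at any time against 0 h in WT, with Cd70 at 1.72 (adjusted p = 0.127) and Tnfsf12 at -2.05 (adjusted p = 0.104) at 24 h. Between the genotypes Tnfsf13b, encoding BAFF, was called at 6 h (1.27, adjusted p = 0.0352), a gene named after its values were seen.

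Over the 24 libraries, Tnf and Tnfsf14 were the most alike of the 10 ligands (Pearson r of log2 CPM 0.959), followed by Ltb and Fasl (0.911), Tnfsf10 and Tnfsf14 (0.816) and Cd40lg and Tnfsf8 (0.809). Lta was least like Tnfsf4 (-0.712) and Fasl (-0.685), and it had -0.510 with its neighbour Ltb. Among 9753 genes with at least 10 CPM in a library, the closest to Tnf were Map2k3os (0.972) and Mir155hg (0.971), the host of the microRNA miR-155, and the closest to Tnfsf14 were Cd160 (0.979) and Mir155hg (0.966). Those nearest to Lta were Rpf2 (0.980), a factor of ribosome assembly, and Timm10 (0.979), a chaperone of mitochondrial protein import. Cd40lg was most like Zfp52 (0.940) and Cd69 (0.930), an early activation marker. Fasl was most like Hic1 (0.964) and Ptpn22 (0.961), Ltb like Serf2 (0.977) and Atxn7l3b (0.971) and Tnfsf8 like Atp9a (0.921) and Sla (0.913). Tnfsf10 had Serpina3g (0.928) and Slc2a6 (0.906), Tnfsf4 had Id2 (0.891) and Lamc1 (0.888), and Tnfsf11, with Caskin2 (0.797) and Fbxl19 (0.776), had no gene as near as any other ligand did. The points are 4 libraries from each of 6 mice, share the scaling of each library and the course of stimulation, and are no test of a link.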

How the data were processed

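RNA of splenic CD4+ T cells was sequenced with a stranded mRNA kit. The authors mapped the reads with STAR to GRCm38 and deposited 1 table of whole-number read counts per gene, with 24 columns, each of which was matched to its sample by name. The paper's methods name RSEM for counting, but its RNA sequencing results are on naïve T cells and cells in regulatory T cell culture conditions. Which tool counted the reads of this table, its strand setting and software versions are not given in the sources used here. Reads of antisense genes may therefore be included. The submitters' processing notes also name DESeq2 and edgeR, without a role. Of 54446 gene IDs, 54409 matched the GENCODE M21 annotation of GRCm38, which gave symbols, positions and exon lengths, and 31367 had a read.

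Counts were fitted with edgeR 4.0.16 (R 4.3.3): TMM factors (0.928 to 1.087), filterByExpr with a minimum count of 10 (15325 genes kept, with 99.93% of all counts), 1 mean for each of the 8 groups over all 24 libraries, and a two-sided quasi-likelihood F test, with Benjamini-Hochberg adjustment over all genes in each comparison and a threshold of 0.05. The biological coefficient of variation was 18.6%. CPM used the TMM-scaled library sizes, and log2 CPM a prior count of 2. SE is the log2 change divided by the square root of F. Groups of 3 hold separate mice, as read from the numbers in the sample titles, so an exact permutation test of 3 against 3 could reach no p below 0.1 and was not used. Within a group no 2 libraries agreed within sampling noise (chi-square per degree of freedom 7.17 to 57.3 over 24 pairs). Each mouse gave all 4 times, and deviations from the group means correlated at 0.139 to 0.567 within a mouse (36 pairs), against -0.432 to 0.0742 between mice of a genotype (72 pairs), so a mouse block was fitted beside the fit without it for changes over time. The deviations of the 3 mice of a group sum to 0. The values between mice are therefore tied to those within a mouse and are no separate support. The SE takes in the spread between the mice of a group, and the floor covers counting error only.

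The 10 ligands and all gene lists, and the rule for the genes named (up to 3 of a list with the largest called WT change at 24 h, and the 2 genes most like each ligand), were chosen with earlier results of these data known. Alternatives were other size factors, DESeq2 1.42.0, limma-voom (limma 3.58.1), other filters, only the libraries compared, replicate blocks and each mouse left out. The scripts were tested on simulated data. Promoters were read from a RefSeq table of GRCm38.p6.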

Additional observations from a re-analysis of the deposited data

Results flagged for a closer look

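In 3 of the ligands the rise from 0 to 6 h was smaller in Aim2-/- than in WT cells by the test of the difference itself, with the mouse as a block. The log2 difference was -1.04 for Tnf, -1.04 for Cd40lg and -1.12 for Tnfsf8, with adjusted p-values of 0.0127, 0.0154 and 0.0199 in edgeR. These were 3 of 10 ligands, where 717 of the 15325 genes tested were called, or 4.68%. Without the block the adjusted p-values were 0.0833, 0.0985 and 0.215. With the block and without WT 3 or without Aim2-/- 1 none of the 3 was called. Of all genes, 0 of 15669 and 9 of 15402 were called in these fits.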

How the results depend on the processing

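Of 2140 log2 values of single ligands under alternative settings, 1970 kept their direction and their side of the threshold, 74 gained a call, 48 lost 1 and 48 changed sign, all 48 of these for values that were not called. Ranks by CPM per kb were the same with the length of the longest transcript in all 80 cases. Scaling by library totals alone moved the median log2 change of all genes most in Aim2-/- cells at 6 h, from 0.0776 to 0.198. All 10 ligands lay far above the floor of 3 counts in every library. The cause of the changes below was not tested.

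Counts of ligands called moved by over 1.5 times as follows. The shares of all genes called under these settings are not given beside the counts. The counts therefore show how calls move with the setting and are no result about the ligands. Without a filter on low counts there were 7 at 3 h in Aim2-/- cells (4 in the main analysis), 6 from 3 to 6 h in WT (3), 3, 1 and 2 between the genotypes at 0, 3 and 24 h (0 each) and 1 and 3 for the genotype difference in the 3 and 6 h response (0 each). With the mouse as a replicate block there were 7 at 3 h in Aim2-/- cells, 6 and 5 from 3 to 6 h in WT and Aim2-/- cells (3 each) and 3 for the difference in the 6 h response, and the block moved no other count by as much. DESeq2 gave 1 between the genotypes at 3 h and 2 for the difference in the 6 h response. With only the libraries compared there were 5 and 1 from 3 to 6 h in WT and Aim2-/- cells. Mouse numbers shared by the genotypes mark different animals and did not pair them (r = -0.165 to 0.268 over 8 pairs). With the number as a replicate block there were 4, 2 and 1 between the genotypes at 0, 3 and 24 h.

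Leaving out 1 mouse at a time gave 4 to 7 calls at 3 h and 5 to 8 at 24 h in WT, 1 to 3 from 3 to 6 h and 5 to 7 from 6 to 24 h in WT, and 0 to 1, 1 to 2 and 0 to 1 between the genotypes at 0, 6 and 24 h. The shares of all genes in the fits behind these ranges are not given beside them. For the difference in the 6 h response it gave 0 without the block and, in an alternative added after the data were seen, 0 to 4 with it: 3 without the mouse labelled WT 1, 0 without WT 3, 3 without WT 4, 0 without Aim2-/- 1, 4 without Aim2-/- 2 and 2 without Aim2-/- 4. In the same order, 547, 0, 339, 9, 799 and 344 of all genes were called with the block, of 15402 to 15669 tested. The calls without WT 4 were Tnf, Cd40lg and Fasl (-0.78, adjusted p = 0.0391), not Tnfsf8, and the fourth without Aim2-/- 2 was Fasl (-0.78, adjusted p = 0.0412), named after its values were seen. Over all genes, the 2421 called between the genotypes at 6 h became 95 without WT 4, 179 without WT 3, 295 without Aim2-/- 1, 422 without Aim2-/- 4 and 4020 without Aim2-/- 2. At 0 h the 802 genes became 1553 in DESeq2, 30 without WT 3 and 37 without WT 4. At 3 h the 45 genes became 314 in DESeq2, at 24 h the 102 became 787, and for the difference in the 6 h response the 4 became 305.

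Between the genotypes, Cd40lg at 0 h turned to -0.00192 with RLE size factors, -0.00187 with DESeq2, -0.011 without a filter and -0.015 with the number as a replicate block. With that block Tnfsf8 turned to -0.0177 at 3 h and -0.088 at 24 h, Tnfsf14 to 0.0217 at 6 h and Tnfsf4 to -0.0232 at 24 h, which was -0.0212 in limma-voom. For the difference in the 3 h response, Ltb turned to -0.00203 with only the libraries compared, and Tnfsf14 to -0.0412 in limma-voom, -0.00641 with only the libraries compared and -0.00411 with the mouse as a replicate block.

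Leaving out 1 mouse at a time, these log2 values crossed 0. In WT, Fasl ran from -0.404 to 0.0107 at 3 h and -0.128 to 0.214 at 6 h, and Tnfsf4 from -0.0163 to 0.278 from 3 to 6 h. In Aim2-/- cells, Cd40lg ran from -0.0224 to 0.371 at 6 h and -0.452 to 0.0424 from 3 to 6 h, Tnfsf8 from -0.0347 to 0.275 from 3 to 6 h and Tnfsf11 from -0.0364 to 0.259 from 6 to 24 h. Between the genotypes at 0 h, Cd40lg ran from -0.144 to 0.223, Tnfsf10 from -0.0843 to 0.246 and Tnfsf14 from -0.126 to 0.346. At 3 h Tnfsf11 ran from -0.0529 to 0.347 and Tnfsf14 from -0.194 to 0.417. At 6 h Ltb ran from -0.179 to 0.0188, Tnfsf4 from -0.00825 to 0.536 and Tnfsf14 from -0.226 to 0.107. At 24 h Tnfsf4 ran from -0.428 to 0.299, Tnfsf11 from -0.128 to 0.34 and Tnfsf14 from -0.16 to 0.174. For the difference in the 3 h response Ltb ran from -0.0893 to 0.131, Fasl from -0.374 to 0.0431, Tnfsf4 from -0.236 to 0.0537 and Tnfsf14 from -0.33 to 0.302, and in the 24 h response Fasl from -0.0304 to 0.192 and Tnfsf14 from -0.311 to 0.157.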
